A study of Danio rerio with 26 samples.

Results

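Radial glia line the ventricular surface of the adult zebrafish telencephalon and act both as neural stem cells and as the main macroglia, carrying intermediate filaments, the enzymes that recycle glutamate to glutamine and, in teleosts, the brain form of aromatase. Their cell bodies form the ventricular layer and their long processes cross the parenchyma beneath it. In mammals the counterparts of several of these genes mark radial glia of the embryo and astrocytes of the adult.

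A set of 10 structural and metabolic genes of radial glia was chosen by gene symbol, and 9 of them were described here out of 19260 genes measured. The 9 were gfap, vim, nes, s100b, cyp19a1b, glula, fabp7a, mfge8a and hepacama, each with a single probe set that carried its symbol and no other. The glutamate transporter gene slc1a2b was left out, because its only probe set also carried slc1a1. The rule itself uses no measured value, although earlier results of these data were known when the set was made. The mean of each of the 9 genes over all arrays lay above the table median of 3.07 on the log2 scale, with the lowest mean, 4.94, for nes.

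The study measured 26 microarrays of telencephalic tissue from adult zebrafish aged 3 to 6 months, all of the line Tg(gfap:gfp)mi2001, in which the gfap promoter drives green fluorescent protein in every group, unlesioned fish included. The medial neurogenic zone had 2 arrays without a lesion, 4 at day 2 and 3 at day 7 after the stab wound. The dorsal subventricular zone (SVZ) had 3 arrays without a lesion, 3 at day 2 and 3 at day 7. The dorsal parenchyma had 2 arrays without a lesion, 3 at day 2 and 3 at day 7. The labels call the arrays biological replicates without saying how many animals each holds, so p-values measure the spread between these arrays. The treatment text describes an injection through a hole in the skull, whereas the design text names a stab wound, and the medial zone is known from the sample labels only.

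The values are log2 intensities normalized by the authors, and a difference of 1 is a 2-fold difference. Levels of different genes were not set against each other, because probe sets differ in brightness. Array medians lay between 3.01 and 3.21. A gene was called at a limma adjusted p under 0.05, adjusted over 19260 genes. In the main fit each SE, interval and p-value used a single spread per gene, pooled over all 9 groups. Residual spread was taken over the 14041 genes with a mean above the table median. It was widest in parenchyma, with a median SD of 0.284 in the medial zone, 0.255 in the dorsal SVZ and 0.325 in parenchyma.

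The dissected regions differed in the markers of other cells. Mean log2 levels over 17 genes of subpallial territory were 6.95 to 7.79 on medial arrays, 4.00 to 4.59 on dorsal SVZ arrays and 4.68 to 6.00 on parenchyma arrays. Mean levels over 16 genes of ciliated ependyma were 3.64 to 4.34 in the medial zone and 4.14 to 4.68 in the dorsal SVZ, against 3.40 to 3.57 in parenchyma. Neuronal markers, 24 genes, were at 7.86 to 8.44, 7.80 to 8.28 and 8.20 to 8.75 on medial, dorsal SVZ and parenchyma arrays. Markers of progenitors and newborn neurons, 19 genes, had means of 6.47 to 6.99, 5.85 to 6.30 and 5.06 to 5.53 on these arrays, and 12 oligodendrocyte markers 4.91 to 5.29, 4.42 to 4.80 and 4.92 to 5.86. Averaged over the times, 16 of the 19 progenitor markers were higher in the medial zone and 12 in the dorsal SVZ than in parenchyma. Between the zones, 13 were higher in the medial zone than in the dorsal SVZ. Over all genes 20.6%, 11.9% and 11.3% were higher in these comparisons. Of the 12 oligodendrocyte markers 5 were lower in the medial zone and 7 in the dorsal SVZ than in parenchyma, against 13.4% and 7.28% of all genes. Means over 18 endothelial and mural markers were 4.37 to 4.71, 4.575 to 4.80 and 5.03 to 5.57 on medial, dorsal SVZ and parenchyma arrays. The part of all these cells in the region differences was not tested.

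**Figure D1:**
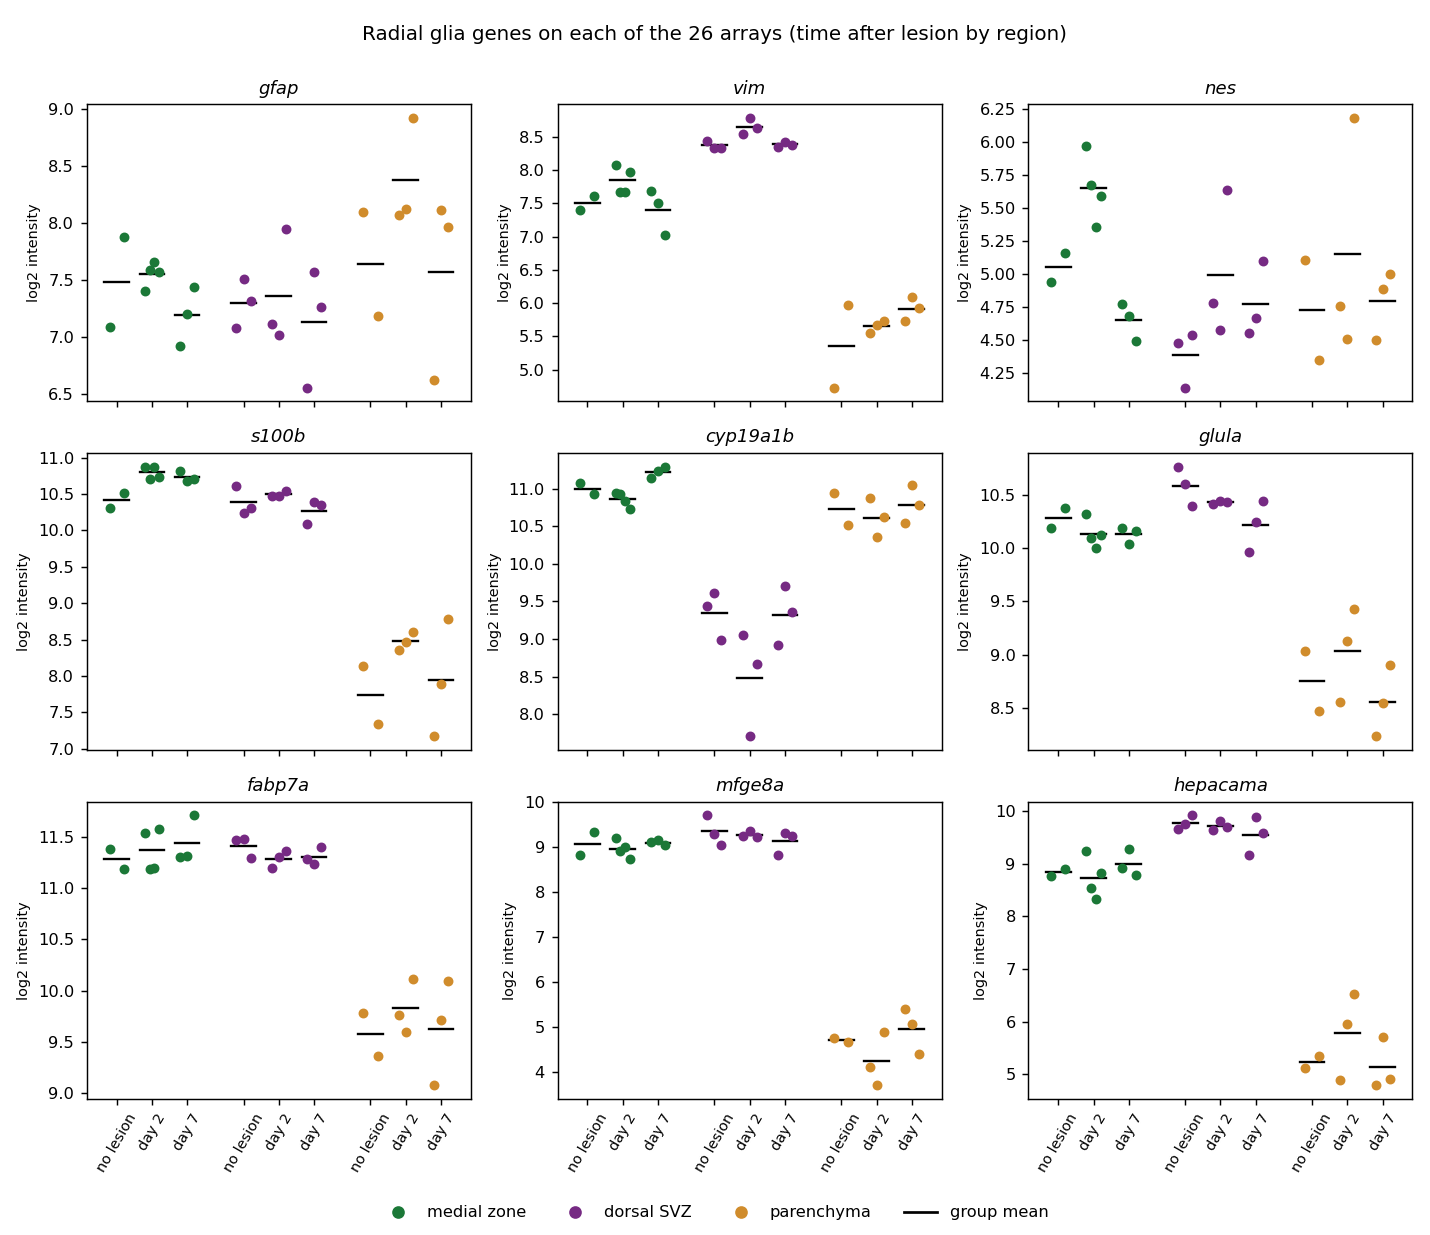
Log2 intensity of each gene on every array (points) with group means (bars), by region (colour) and time after lesion (x axis: no lesion, day 2, day 7). For vim, s100b, glula, fabp7a, mfge8a and hepacama all medial and dorsal SVZ points lie above all parenchyma points, while cyp19a1b is lowest in the dorsal SVZ and gfap and nes overlap between regions.

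The first question was how the 9 genes differ between the ventricular zones and the parenchyma. Averaged over the 3 times, 7 of the 9 genes differed between dorsal SVZ and parenchyma, 6 higher and 1 lower in the dorsal SVZ, where 19.2% of all genes were called (11.9% higher, 7.28% lower). Between medial zone and parenchyma 6 were higher and none lower in the medial zone, where 34.1% of all genes were called (20.6% higher, 13.4% lower). The 2 comparisons share the parenchyma arrays and are not independent of each other. The median difference of the 9 genes was 1.66 for dorsal SVZ over parenchyma and 1.69 for medial zone over parenchyma, against -0.01 and 0.00 over all genes. In bulk tissue, fewer cells of a type and less RNA per cell cannot be told apart.

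Among the intermediate filament genes of the set, gfap, vim and nes, only vim separated the regions. Vimentin, encoded by vim, is a filament of radial glia and of other non-neuronal cells. On medial arrays vim was at 7.03 to 8.08 with a median of 7.67, and on dorsal SVZ arrays at 8.34 to 8.79 with a median of 8.43. Parenchyma arrays lay at 4.73 to 6.10 with a median of 5.73. The 3 ranges did not touch, and the order was dorsal SVZ, medial zone, parenchyma. The difference was 2.83 (SE 0.13, 7.12-fold, adjusted p = 1.3e-13) for dorsal SVZ over parenchyma and 1.95 (SE 0.14, 3.85-fold, adjusted p = 1.2e-10) for medial zone over parenchyma.

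The gene gfap encodes glial fibrillary acidic protein, the filament whose promoter marks the reporter line. It was at 6.92 to 7.88 on medial arrays (median 7.44) and at 6.55 to 7.95 on dorsal SVZ arrays (median 7.26). On parenchyma arrays it was at 6.62 to 8.92 with a median of 8.08, so all 3 ranges overlapped. Unlike vim, gfap had its 3 highest group means in parenchyma, at 8.37 at day 2, 7.635 without a lesion and 7.57 at day 7. The unlesioned and day 7 means lay close to the next mean, 7.55 in the medial zone at day 2. Averaged over the 3 times, the difference was -0.60 (SE 0.21, adjusted p = 0.051) for dorsal SVZ over parenchyma. For medial zone over parenchyma it was -0.45 (SE 0.22, adjusted p = 0.111). Neither was called in the main fit of 9 groups to all arrays and genes. In unlesioned tissue alone these differences were -0.34 (SE 0.39, adjusted p = 0.708) and -0.15 (SE 0.43, adjusted p = 0.874).

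The gfap result lay close to the threshold and depended on the fit and on single arrays. Of 27 alternatives for dorsal SVZ over parenchyma 17 did not call it, among them 11 of 17 fits with 1 array left out. For medial zone over parenchyma 25 of 27 did not call it. The settings that did call it follow. For dorsal SVZ over parenchyma the same-numbered arrays deviated together at day 2 and at day 7. The numbers did not pair arrays in general. A fit with replicate numbers blocked over all regions and times gave -0.65 (adjusted p = 0.0175), which was called. With the block within a time the gfap difference was -0.60 (adjusted p = 0.024). It was also called with a trended and robust prior (adjusted p = 0.039) and with the genes of lowest mean level left out (adjusted p = 0.039). The dorsal SVZ difference was called without parenchyma day 7 replicate 1 (-0.75, adjusted p = 0.0056), which had the lowest parenchyma value. It was also called when any of 5 further arrays was left out in turn (replicates 1 and 2 of parenchyma at day 2, replicate 3 of the dorsal SVZ at day 2, replicate 2 of the dorsal SVZ at day 7, replicate 2 of unlesioned parenchyma), with adjusted p up to 0.049. The medial difference was called without parenchyma day 7 replicate 1 (-0.61, adjusted p = 0.016) and without parenchyma unlesioned replicate 2 (-0.60, adjusted p = 0.04998).

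Nestin, encoded by nes, is a filament of neural stem cells and progenitors in mammals. It ranged over 4.49 to 5.97 on medial arrays, 4.14 to 5.63 on dorsal SVZ arrays and 4.35 to 6.18 on parenchyma arrays. The ranges overlapped, and no region comparison was called. Dorsal SVZ over parenchyma was -0.17 (95% interval -0.58 to 0.23) and medial zone over parenchyma 0.22 (-0.19 to 0.63).

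The calcium-binding protein gene s100b separated both ventricular zones from parenchyma. It was at 10.31 to 10.88 on medial arrays and 10.09 to 10.61 on dorsal SVZ arrays, against 7.17 to 8.78 on parenchyma arrays. Every ventricular array stood above every parenchyma array, and the medial and dorsal SVZ ranges overlapped. The difference was 2.59 (SE 0.16, 6.04-fold, adjusted p = 8.5e-12) for medial zone over parenchyma and 2.33 (SE 0.15, 5.03-fold, adjusted p = 4.7e-11) for dorsal SVZ over parenchyma.

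The metabolic genes glula and fabp7a were also higher in both ventricular zones than in parenchyma, with smaller differences than s100b. Glutamine synthetase, encoded by glula, converts glutamate taken up at synapses to glutamine. It was at 10 to 10.38 on medial arrays and 9.96 to 10.77 on dorsal SVZ arrays, against 8.23 to 9.43 on parenchyma arrays. The lowest ventricular array thus stood above the highest parenchyma array. The medial zone was 2.64-fold and the dorsal SVZ 3.09-fold above parenchyma (SE 0.13 and 0.12 on the log2 scale), with adjusted p = 7.3e-09 and 6.0e-10.

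Brain lipid-binding protein, encoded by fabp7a, carries fatty acids and in mammals is a marker of radial glia. It was at 11.18 to 11.71 on medial arrays and 11.20 to 11.48 on dorsal SVZ arrays, against 9.08 to 10.12 on parenchyma arrays. Medial and dorsal SVZ values covered nearly the same range, above all parenchyma values. The difference was 1.69 (SE 0.13, 3.22-fold, adjusted p = 3.6e-10) for medial zone over parenchyma and 1.66 (SE 0.12, 3.16-fold, adjusted p = 4.9e-10) for dorsal SVZ over parenchyma.

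The 2 genes with the widest difference from parenchyma encode proteins of the cell surface and its surroundings. The secreted glycoprotein gene mfge8a, whose mammalian counterpart bridges phosphatidylserine and integrins, was at 8.74 to 9.33 on medial arrays and 8.83 to 9.71 on dorsal SVZ arrays, against 3.71 to 5.40 on parenchyma arrays. The gap between the lowest ventricular and the highest parenchyma array was more than the whole spread within either. The difference was 4.41 (SE 0.16, 21.2-fold, adjusted p = 1.8e-15) for medial zone over parenchyma and 4.62 (SE 0.15, 24.5-fold, adjusted p = 2.2e-16) for dorsal SVZ over parenchyma. By size it ranked 7 and 8 of 19260 genes in these comparisons. The lowest parenchyma value, 3.71, lay near the table median of 3.07, where a level may be background only. The size of the fold and its rank are uncertain to that extent.

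The adhesion gene hepacama, whose mammalian counterpart is made by astrocytes, was at 8.33 to 9.29 on medial arrays and 9.17 to 9.92 on dorsal SVZ arrays, against 4.80 to 6.52 on parenchyma arrays. Ventricular and parenchyma ranges were apart, and the medial and dorsal SVZ ranges overlapped at their ends. The difference was 3.47 (SE 0.19, 11.1-fold, adjusted p = 1.5e-12) for medial zone over parenchyma and 4.30 (SE 0.18, 19.7-fold, adjusted p = 2.3e-14) for dorsal SVZ over parenchyma.

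Aromatase B, encoded by cyp19a1b, makes estrogens from androgens and is a marker of radial glia in teleosts. It was at 10.73 to 11.29 on medial arrays (median 10.94) and at 7.70 to 9.70 on dorsal SVZ arrays (median 9.06). On parenchyma arrays it was at 10.35 to 11.05 with a median of 10.70. All dorsal SVZ arrays lay below all other arrays, and the medial and parenchyma ranges overlapped. Dorsal SVZ over parenchyma was -1.66 (SE 0.16, 3.16-fold lower, adjusted p = 1.9e-08), and medial zone over parenchyma was 0.32 (SE 0.16, adjusted p = 0.129), not called. Fitted on these 2 regions alone, the medial difference was called (adjusted p = 0.041).

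**Figure D2:**
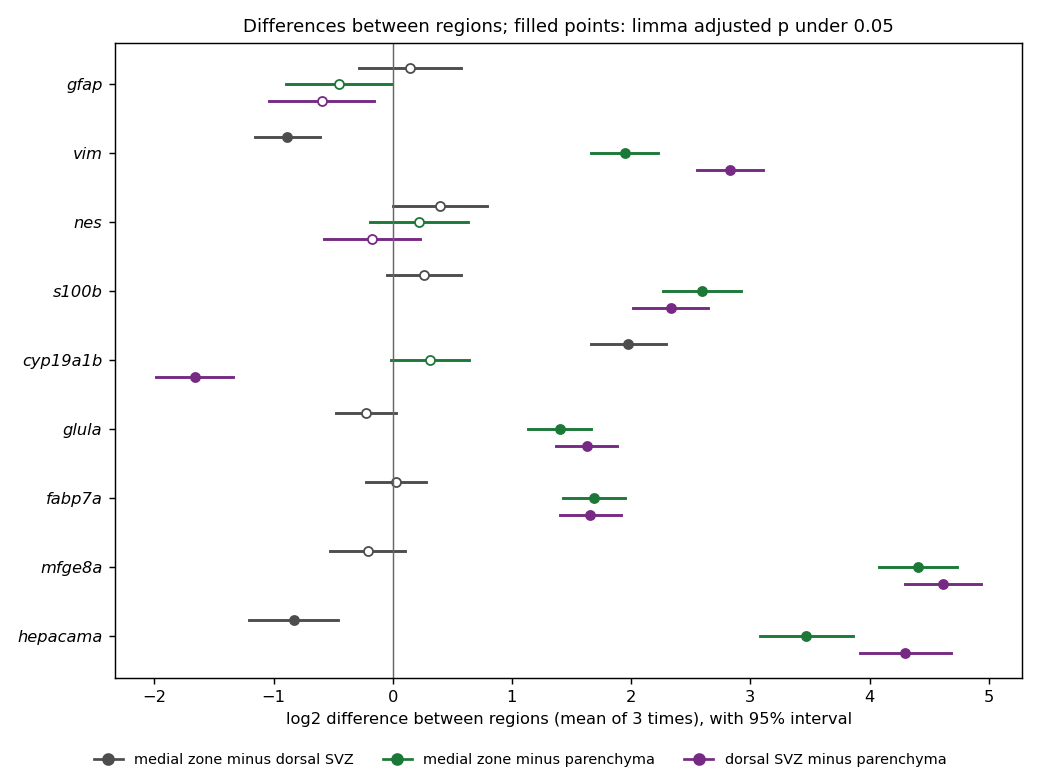
Log2 difference between regions, each region the mean of its 3 times, for each gene (y axis) with its 95% interval (lines). Filled points were called by limma. The intervals of dorsal SVZ and medial zone minus parenchyma lie right of 0 for 6 genes, and for cyp19a1b the dorsal SVZ difference lies at -1.66.

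Counts of separation were read against all genes. No overlap between dorsal SVZ and parenchyma arrays was found for 7 of the 9 genes and for 4.4% of all genes. For medial zone and parenchyma these were 6 of 9 and 6.9%. Across the 9 group means the Pearson correlations among vim, s100b, glula, fabp7a, mfge8a and hepacama were 0.905 to 0.991, and those of gfap with these 6 were -0.763 to -0.594. The 9 means come from 3 regions, so the correlations mainly describe the order of the regions.

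The same contrasts in unlesioned tissue alone addressed whether the regions differ before any wound. In unlesioned dorsal SVZ 6 of the 9 genes were higher and cyp19a1b was lower than in unlesioned parenchyma, where 6.69% of all genes were called (4.89% higher, 1.81% lower). In the unlesioned medial zone 6 were higher and none lower than in parenchyma, with 10.5% of all genes called (7.28% higher, 3.26% lower). Unlesioned values of mfge8a were 8.82 and 9.33 in the medial zone, 9.71, 9.31 and 9.05 in the dorsal SVZ, and 4.77 and 4.66 in parenchyma. The unlesioned parenchyma arrays thus lay far below, with differences of 4.36 (SE 0.32) and 4.64 (SE 0.29) for medial zone and dorsal SVZ over parenchyma. For cyp19a1b the unlesioned difference of dorsal SVZ from parenchyma was -1.38 (SE 0.29, adjusted p = 0.0034), and without parenchyma unlesioned replicate 1 it was -1.17 (adjusted p = 0.078).

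The second question was how the 2 ventricular zones differ from each other. Averaged over the 3 times, cyp19a1b was higher and vim and hepacama were lower in the medial zone than in the dorsal SVZ, and the other 6 genes were not called, where 19.6% of all genes were called (11.3% higher, 8.27% lower). The cyp19a1b difference was 1.98 (SE 0.15, 3.93-fold, adjusted p = 9.8e-10), with no overlap of arrays. For vim it was -0.88 (SE 0.13, 1.85-fold lower, adjusted p = 2.1e-05), also with no overlap, and for hepacama -0.83 (SE 0.18, 1.78-fold lower, adjusted p = 0.0016), with overlap. No overlap between the zones was found for 4.94% of all genes.

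For fabp7a, glula and mfge8a the 95% intervals of the medial minus dorsal SVZ difference were -0.22 to 0.28, -0.48 to 0.02 and -0.52 to 0.11, which bounds the differences these arrays allow. For s100b the interval was -0.05 to 0.58, for gfap -0.28 to 0.58 and for nes 0.00 to 0.79. Markers of subpallial territory moved with the medial zone, as 16 of 17 were higher there than in the dorsal SVZ and 1 was not called. In the dorsal SVZ 4 or 5 of the 17, depending on the time, had a mean at or under the table median. Their part in the difference of cyp19a1b, vim and hepacama was not tested.

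In unlesioned tissue 2 genes were called between medial zone and dorsal SVZ, where 4.15% of all genes were called (2.37% higher, 1.79% lower). Unlesioned cyp19a1b was at 11.07 and 10.93 in the medial zone and at 9.44, 9.62 and 8.99 in the dorsal SVZ. The medial values were higher on every array, by 1.65 (SE 0.29, adjusted p = 8.3e-04). Unlesioned vim was at 7.40 and 7.61 in the medial zone and at 8.44, 8.34 and 8.34 in the dorsal SVZ, a difference of -0.87 (SE 0.25, adjusted p = 0.049). The vim call ended when any of these 5 arrays was left out, with adjusted p of 0.103 to 0.301, although the sign held each time. Fitted on these 2 groups alone, hepacama was called too (-0.94, adjusted p = 0.032).

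The duplicated copies of the members, which zebrafish keep from the genome duplication of teleosts, did not all follow them. The copy fabp7b was at 2.53 to 5.66 on medial arrays, 10.06 to 10.81 on dorsal SVZ arrays and 2.59 to 4.12 on parenchyma arrays. It was thus high in the dorsal SVZ, with medians of 3.36 in the medial zone and 3.56 in parenchyma, whereas fabp7a was high in both ventricular zones. The difference of fabp7b was 6.87 (SE 0.25, adjusted p = 8.0e-16) for dorsal SVZ over parenchyma and -6.70 (SE 0.24, adjusted p = 1.7e-15) for medial zone over dorsal SVZ. Its second probe set gave 6.56 and -5.98. Near the table median a level may be background only, which leaves the size of this fold uncertain.

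Of the other copies, glulb was higher than in parenchyma by 0.58 (SE 0.13, adjusted p = 0.0015) in the medial zone and by 0.68 (SE 0.13, adjusted p = 3.6e-04) in the dorsal SVZ. For mfge8b, medial zone over parenchyma was -0.77 (SE 0.21, adjusted p = 0.0067) and dorsal SVZ over parenchyma -0.17 (SE 0.21, adjusted p = 0.621). The copy hepacamb was not called in any of the 3 region comparisons, with values of 3.73 to 5.17, 3.73 to 4.16 and 3.78 to 4.87 on medial, dorsal SVZ and parenchyma arrays. The ovarian aromatase copy cyp19a1a lay at 2.70 to 2.92, 2.77 to 3.18 and 2.85 to 3.38 there, around the table median.

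Most other genes known from radial glia were higher in the dorsal SVZ than in parenchyma, and most were higher in the medial zone than in parenchyma. Of 52 such genes measured, 35 were higher and 4 lower in dorsal SVZ than in parenchyma and 13 were not called, with a median difference of 1.18. In the medial zone 37 were higher and 4 lower than in parenchyma and 11 were not called, with a median of 1.44. Over all genes these medians were -0.01 and 0.00. Of all genes 11.9% were higher and 7.28% lower in the dorsal SVZ, and 20.6% higher and 13.4% lower in the medial zone. The Notch target her4.1 was higher by 3.63 (SE 0.13) in the medial zone and 4.61 (SE 0.12) in the dorsal SVZ. The sphingosine phosphate receptor gene s1pr1 was higher by 4.08 (SE 0.16) in the medial zone and 4.204 (SE 0.15) in the dorsal SVZ, and atp1b4, of the sodium pump beta subunit family, by 3.79 and 3.70. Between medial zone and dorsal SVZ, 10 of the 52 were higher, 6 lower and 36 not called, with a median of 0.06. Over all genes 11.3% were higher and 8.27% lower there. The RNA-binding protein gene msi2b was higher in the medial zone by 1.36 and the transcriptional regulator id3 by 1.53. The genes lower there included fabp7b, and those lower in the medial zone than in parenchyma included mfge8b, both described above.

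**Figure D3:**
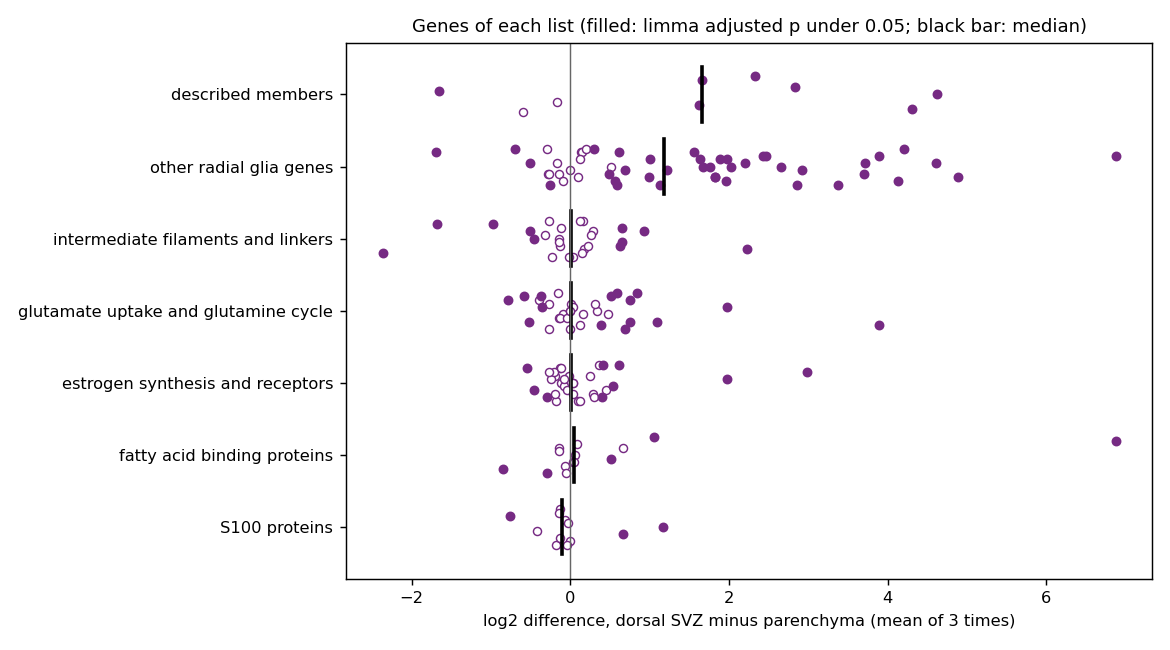
Log2 difference of dorsal SVZ minus parenchyma, mean of the 3 times, for each gene (point) of each list (y axis). Filled points were called by limma and the black bar is the median of the list, which is 1.66 for the 9 genes, 1.18 for other radial glia genes and between -0.10 and 0.04 for the other lists.

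Other intermediate filament and linker genes did not share the order of vim. Of 26 measured, 5 were higher and 5 lower in dorsal SVZ than in parenchyma, where 11.9% of all genes were higher and 7.28% lower. In the medial zone 7 were higher and 5 lower than in parenchyma, where 20.6% of all genes were higher and 13.4% lower, and these shares of all genes also stand behind the counts of the lists that follow. The neurofilament genes nefma and nefla, of neurons, had dorsal SVZ over parenchyma at -2.37 (SE 0.29) and -1.68 (SE 0.26). The linker gene pleca was higher in dorsal SVZ by 0.93 (SE 0.13). In the medial zone the nuclear lamin gene lmnb2 and the neuronal filament gene inab were higher than in parenchyma by 1.43 and 1.63. The remaining genes, 16 and 14 in these comparisons, were not called. Between medial zone and dorsal SVZ 6 were higher, 5 lower and 15 not called, where 11.3% of all genes were higher and 8.27% lower.

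Beside glula, 10 of 33 genes of glutamate uptake and the glutamine cycle were higher and 5 lower in dorsal SVZ than in parenchyma, and 9 were higher and 5 lower in the medial zone than in parenchyma. The transporter gene slc6a11b, whose mammalian counterpart takes up GABA, was higher by 4.37 (SE 0.18) in the medial zone and 3.89 (SE 0.18) in the dorsal SVZ. The glial glutamate transporter gene slc1a3b was higher by 1.74 (SE 0.19) and 1.97 (SE 0.18). The GABA-degrading enzyme gene abat had medial zone over parenchyma at -0.97 and dorsal SVZ over parenchyma at -0.79, both called. Both slc6a11b and slc1a3b are also on the list of radial glia genes. Between medial zone and dorsal SVZ 1 gene was higher and 5 were lower, where 11.3% of all genes were higher and 8.27% lower.

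Beside cyp19a1b, 6 of 32 genes of estrogen synthesis and its receptors were higher and 3 lower in dorsal SVZ than in parenchyma, and 9 were higher and 7 lower in the medial zone than in parenchyma. Over all genes 19.2% and 34.1% were called in these comparisons. The steroid dehydrogenase gene hsd17b3 was higher than in parenchyma by 3.66 (SE 0.33) in the medial zone and 2.99 (SE 0.33) in the dorsal SVZ. The estrogen receptor gene esr2a was higher in the medial zone than in parenchyma by 1.92 (SE 0.18) and than in dorsal SVZ by 1.48 (SE 0.18), while dorsal SVZ over parenchyma was 0.45 (adjusted p = 0.088). The gene hsd3b1, of the enzyme family that makes progesterone, was higher in dorsal SVZ than in parenchyma by 1.97 (SE 0.31), and medial zone over dorsal SVZ was -2.11 (SE 0.30). Between medial zone and dorsal SVZ 4 genes were higher and 4 lower, where 11.3% of all genes were higher and 8.27% lower.

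Among 14 fatty acid and retinoid binding protein genes other than fabp7a, 3 were higher and 2 lower in dorsal SVZ than in parenchyma, and none was higher and 1, fabp1a (-0.36, SE 0.10), was lower in the medial zone than in parenchyma. The gene fabp4a was higher in dorsal SVZ than in parenchyma by 1.06 (SE 0.15), and its second probe set gave 1.61. Among 12 S100 genes other than s100b, s100v2 was higher than in parenchyma by 0.86 (SE 0.17) in the medial zone and 1.16 (SE 0.16) in the dorsal SVZ. The gene s100z had medial zone over parenchyma at -2.71 (SE 0.20) and dorsal SVZ over parenchyma at -0.76 (SE 0.20). In all, 2 S100 genes were higher and 1 lower in dorsal SVZ, and 1 was higher and 4 lower in the medial zone.

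The third question was whether the wound changed these genes within a region. At day 2 none of the 9 genes was called by limma in the medial zone, the dorsal SVZ or the parenchyma, where 0.493%, 0.27% and 2.04% of all genes were called. At an unadjusted p under 0.05 there were 0, 1 and 1 of the 9, and 8.39%, 6.8% and 12.5% of all genes. Microglia and macrophage markers rose in the same pieces, 8 of 19 in the medial zone, 8 in the dorsal SVZ and 16 in parenchyma. Their mean level was 5.07 to 5.63 against 4.15 to 4.26 without a lesion in the medial zone, 5.34 to 5.95 against 4.24 to 4.38 in the dorsal SVZ, and 6.26 to 7.32 against 4.17 to 4.26 in parenchyma. Of them ptprc, c1qa and c1qb were at or under the table median in unlesioned tissue of all 3 regions. The part of these cells in the values that follow was not tested.

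For s100b, parenchyma values were 8.35, 8.46 and 8.61 at day 2 and 8.14 and 7.35 without a lesion. All day 2 arrays were above both unlesioned arrays, and the difference was 0.73 (SE 0.29, 95% interval 0.14 to 1.32, adjusted p = 0.244). Medial s100b was at 10.88, 10.71, 10.88 and 10.74 at day 2 and at 10.31 and 10.52 without a lesion. Again no day 2 array reached down to the unlesioned ones, with a difference of 0.39 (SE 0.27, adjusted p = 0.804). In the dorsal SVZ the difference was 0.11 (SE 0.26, adjusted p = 0.992), with overlap. The residual SD of s100b was 0.57 in parenchyma, 0.15 in the dorsal SVZ and 0.096 in the medial zone. These SEs used the pooled spread and do not show that contrast between regions.

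For nes, medial values were 5.97, 5.67, 5.36 and 5.59 at day 2 and 4.94 and 5.16 without a lesion. In the dorsal SVZ nes was at 4.78, 4.57 and 5.63 at day 2 and at 4.48, 4.14 and 4.54 without a lesion. Day 2 arrays were above unlesioned arrays in both zones, by 0.60 (SE 0.34, adjusted p = 0.701) and 0.61 (SE 0.32, adjusted p = 0.804). In parenchyma the day 2 values of 4.76, 4.51 and 6.18 overlapped the unlesioned values of 5.10 and 4.35, and the highest value came from replicate 3. That array was the highest of its group for 8 of the 9 genes.

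For vim, the day 2 arrays also stood above the unlesioned arrays in the medial zone (0.34, SE 0.24) and the dorsal SVZ (0.28, SE 0.22), with adjusted p = 0.796 and 0.946. In parenchyma vim was at 5.54, 5.67 and 5.74 at day 2 and at 4.73 and 5.97 without a lesion, with overlap. The parenchyma difference was 0.30 (SE 0.25, adjusted p = 0.689). It was 0.92 without unlesioned replicate 2, which left replicate 1, the lowest vim value of all 26 arrays, as the only unlesioned array. Without replicate 1 in its place it was -0.32, so the sign depended on which unlesioned array was kept. Lack of overlap at day 2 was found for 3 of 9 genes in the medial zone, 2 in the dorsal SVZ and 1 in parenchyma, and for 16.6%, 14% and 24.7% of all genes.

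The gene gfap was at 8.07, 8.12 and 8.92 in parenchyma at day 2 and at 8.09 and 7.18 without a lesion. The groups overlapped, with a difference of 0.74 (SE 0.39, 95% interval -0.08 to 1.55, adjusted p = 0.459). In the medial zone and dorsal SVZ the differences were 0.07 (-0.70 to 0.84) and 0.06 (-0.67 to 0.79). An interval that reaches 1.55 does not bound gfap in parenchyma below a 2.93-fold rise. The residual SD of gfap was 0.67 in parenchyma, 0.44 in the dorsal SVZ and 0.28 in the medial zone. The interval from the pooled spread may therefore be too narrow for parenchyma.

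The lowest values of cyp19a1b came from the dorsal SVZ at day 2, at 9.06, 7.70 and 8.67, against 9.44, 9.62 and 8.99 without a lesion. Replicate 1 overlapped the unlesioned range and replicate 2 was the lowest of all 26 arrays. The difference was -0.87 (SE 0.26, 95% interval -1.41 to -0.33, unadjusted p = 0.0027, adjusted p = 0.283). With each of the 6 arrays left out in turn it ran from -1.16 to -0.48 and was not called. The residual SD of cyp19a1b was 0.498 in the dorsal SVZ, 0.266 in parenchyma and 0.090 in the medial zone. The SE, interval and p-value rest on the pooled spread, which the tighter medial arrays lower. The interval may therefore be too narrow for the dorsal SVZ. In the medial zone and parenchyma the day 2 differences of cyp19a1b were -0.14 (SE 0.27) and -0.12 (SE 0.29), and the tests of the medial and parenchyma day 2 effects against that of the dorsal SVZ gave no call. The dorsal SVZ effect minus the parenchyma effect was -0.75 (SE 0.39, adjusted p = 0.771).

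The remaining genes, glula, fabp7a, mfge8a and hepacama, had day 2 differences between -0.47 and 0.56 in the 3 regions. The largest of them was in parenchyma, hepacama at 0.56 (SE 0.34) and mfge8a at -0.47 (SE 0.29), and their arrays overlapped.

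**Figure D4:**
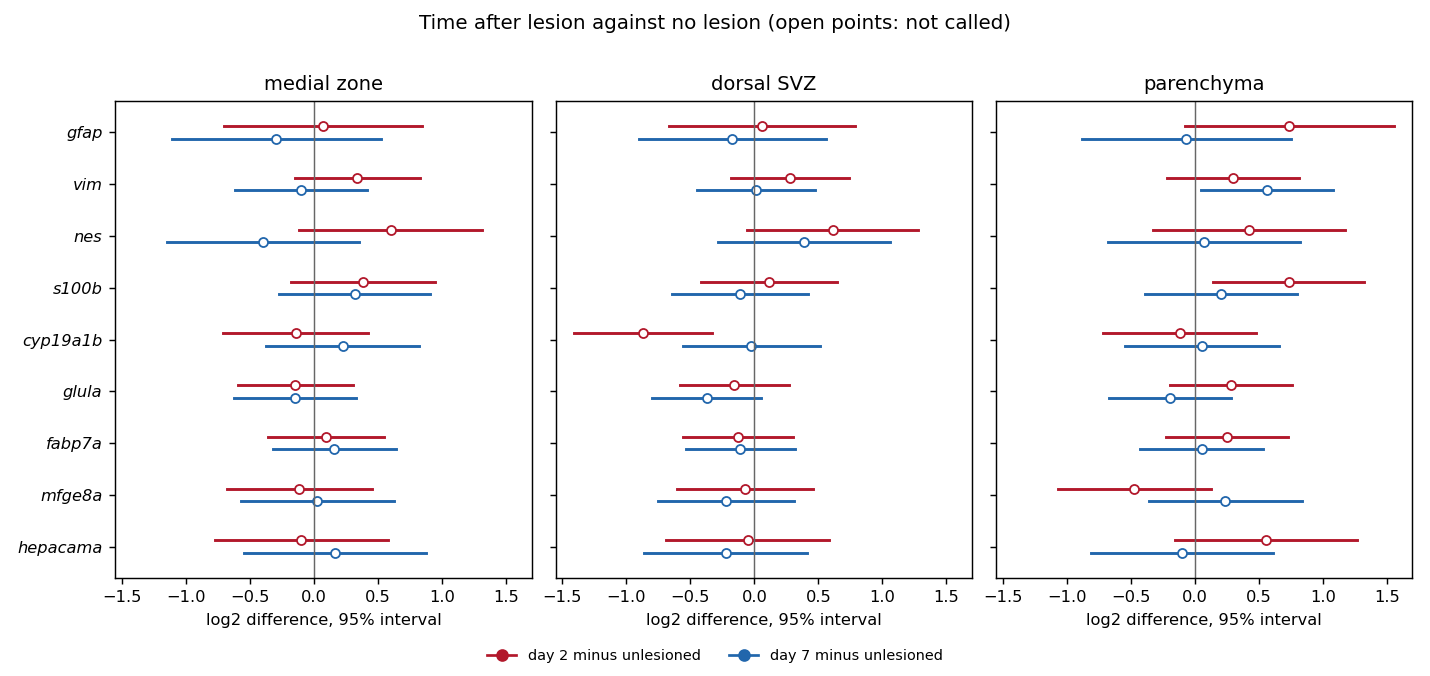
Log2 difference of day 2 and day 7 from no lesion for each gene (y axis) in the medial zone, dorsal SVZ and parenchyma, with 95% intervals. No point was called by limma, and the dorsal SVZ value of cyp19a1b at day 2 lies at -0.87.

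At day 7 none of the 9 genes was called against unlesioned tissue by limma, where 0%, 0% and 0.125% of all genes were called in medial zone, dorsal SVZ and parenchyma. At an unadjusted p under 0.05 there were 0, 0 and 1 of the 9, and 4.07%, 4.45% and 10.8% of all genes. That gene was vim in parenchyma, at 5.73, 6.10 and 5.92 at day 7 and 4.73 and 5.97 without a lesion. The difference was 0.57 (SE 0.25, adjusted p = 0.405). It was 1.19 without unlesioned replicate 2 and -0.06 without unlesioned replicate 1. Medial cyp19a1b was at 11.14, 11.23 and 11.29 at day 7, above every other array of the 9 groups, and at 11.07 and 10.93 without a lesion. Its difference there was 0.22 (SE 0.29, adjusted p = 0.9996). The other differences from unlesioned tissue at day 7 lay between -0.40, for nes in the medial zone, and 0.39, for nes in the dorsal SVZ. Lack of overlap at day 7 was found in the medial zone for 2 genes above (cyp19a1b and s100b) and 1 below (nes). In the dorsal SVZ it was found for 1 gene above (nes), and in parenchyma for 0. The share of all genes without overlap is not given for day 7, so these separations are a description only.

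Between day 7 and day 2 none of the 9 genes was called by limma in the medial zone, dorsal SVZ or parenchyma, where 0.421%, 0.0519% and 1.15% of all genes were called. At an unadjusted p under 0.05 there were 2, 1 and 5 of the 9, and 8.75%, 4.54% and 10.2% of all genes. Medial nes was at 4.77, 4.68 and 4.49 at day 7, below all 4 day 2 values given above, with a difference of -0.996 (SE 0.30, adjusted p = 0.230). The share of all genes without such overlap is not given for day 7 over day 2. In the dorsal SVZ cyp19a1b was at 8.91, 9.70 and 9.36 at day 7, which overlapped the day 2 values, with a difference of 0.85 (SE 0.26, adjusted p = 0.642). In parenchyma the differences were -0.80 for gfap, -0.53 for s100b, -0.48 for glula, -0.66 for hepacama and 0.71 for mfge8a, with adjusted p of 0.279 to 0.488 and overlapping arrays. Parenchyma day 7 replicate 1 was the lowest of its group for 8 of the 9 genes.

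The parenchyma comparison of day 7 with day 2 depended on which arrays were kept. The hepacama difference was -1.11 (adjusted p = 0.043) without day 2 replicate 1. That of s100b was -0.95 (adjusted p = 0.029) without day 7 replicate 3. Without both of these arrays, which had the lowest quality weights, s100b was at -1.01 (adjusted p = 0.031) and glula at -0.89 (adjusted p = 0.031).

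Averaging over the 3 regions, a comparison added after the data were seen, called none of the 9 genes by limma at day 2 over no lesion, where 3.9% of all genes were called. At an unadjusted p under 0.05 there were 4 of the 9 and 15.5% of all genes. The 4 were nes at 0.54 (SE 0.20, adjusted p = 0.150), s100b at 0.41 (SE 0.16, adjusted p = 0.171), vim at 0.31 (SE 0.14, adjusted p = 0.267) and cyp19a1b at -0.38 (SE 0.16, adjusted p = 0.230). The vim value was 0.51 without parenchyma unlesioned replicate 2 and 0.10 without parenchyma unlesioned replicate 1. That of s100b was 0.43 (adjusted p = 0.046) without the 2 arrays of lowest weight. At day 7 over no lesion none was called, with 0.0935% of all genes called, and at an unadjusted p under 0.05 there were 0 of the 9 and 8.68% of all genes. Day 7 over day 2 also gave no call among the 9, with 1.79% of all genes called, and at an unadjusted p under 0.05 there were 3 of the 9 and 12% of all genes. There cyp19a1b was at 0.46 (SE 0.15, adjusted p = 0.126), and at 0.56 (adjusted p = 0.036) without dorsal SVZ day 2 replicate 1.

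The difference of the wound effect between regions was tested directly. None of the 9 genes was called by limma in the 6 such comparisons, and none had an unadjusted p under 0.05. The share of all genes called was 0.0519% for the day 2 effect of dorsal SVZ against parenchyma, 0.0104% for medial zone against parenchyma at day 2 and again at day 7, and 0% in the other 3. The share with an unadjusted p under 0.05 was 6.8%, 7.3% and 3.15% at day 2 for dorsal SVZ minus parenchyma, medial zone minus parenchyma and medial zone minus dorsal SVZ, and 7.11%, 5.77% and 2.92% at day 7.

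The 6 lists around the members held 10 calls in the within-region time comparisons, 4 of them in parenchyma at day 2. Over all genes 2.04% were called in parenchyma at day 2, 0.493% in the medial zone at day 2 and 0.125% in parenchyma at day 7. Of 52 other radial glia genes 1 rose there, the amino acid transporter subunit gene slc3a2a by 3.23 (SE 0.48, adjusted p = 2.7e-04). Of 26 filament and linker genes the keratin gene krt18b rose by 2.64 (SE 0.53, adjusted p = 0.0055) and krt97 fell by 1.01 (SE 0.26, adjusted p = 0.041). Of 33 glutamate genes glud1a, glutamate dehydrogenase, rose by 2.88 (SE 0.30, adjusted p = 2.8e-06), and it also rose by 1.72 (SE 0.28, adjusted p = 0.0036) in the medial zone at day 2. None of the 32 estrogen, 14 fatty acid binding or 12 S100 genes was called at day 2 within a region. At day 7 krt97 fell by 1.28 (SE 0.26, adjusted p = 0.0497) in parenchyma, the only call among these lists at day 7 against unlesioned tissue within a region.

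Between day 7 and day 2 the lists held 4 calls within regions, where 1.15% of all genes were called in parenchyma and 0.421% in the medial zone. In parenchyma slc3a2a fell by 2.41 (SE 0.43, adjusted p = 0.0025), glud1a by 2.41 (SE 0.27, adjusted p = 1.4e-05) and fabp4a by 1.07 (SE 0.26, adjusted p = 0.037), and in the medial zone her4.1 rose by 0.88 (SE 0.19, adjusted p = 0.043). Averaged over the 3 regions, 6 genes rose at day 2 over no lesion, where 3.9% of all genes were called. They were slc3a2a by 1.47 (SE 0.26), krt18b by 2.03 (SE 0.29), lmnb1 by 0.61 (SE 0.15), glud1a by 1.93 (SE 0.16), and 2 of the 14 fatty acid and retinoid binding protein genes, fabp4a by 0.78 (SE 0.16) and rbp2a by 1.402 (SE 0.36). A second lmnb1 probe set gave day 2 differences of 0.60, 0.24 and 0.33 in parenchyma, dorsal SVZ and medial zone. A second fabp4a probe set gave 1.71, 0.73 and 0.33 in these regions. The averaged day 7 over day 2 comparison called krt18b (-1.46, SE 0.27), glud1a (-1.36, SE 0.15) and fabp4a (-0.61, SE 0.14), where 1.79% of all genes were called.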

How the data were processed

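RNA from the dissected regions was extracted with RNeasy Plus Micro, amplified with Ovation PicoSL WTA and labelled with Encore Biotin, per the labels' protocols. The deposited table holds log2 intensities of 75212 probe sets on 26 arrays, which the authors normalized by RMA in Affymetrix Expression Console 1.2, per the submitters' processing notes. The genome build is not given in the sources used here, and detection calls were not used here, so levels near the table median of 3.07 are not shown to lie above background.

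Probe sets with 1 symbol (20806) were kept, 855 with several symbols and 53551 with none were left out, and the probe set of highest mean stood for each of 19260 genes. Symbols were updated through Entrez IDs of the RefSeq table of GRCz12tu, which matched 20323 of the 20806. The model of 9 groups was fitted to all genes with limma 3.58.1 in R 4.3.3, with Benjamini-Hochberg adjustment over 19260 genes in each of 21 comparisons and 3 added later. The script was tested on simulated data. The number of arrays limits the precision. Alternatives changed the normalization, the filter, the prior, the replicate block, the probe sets and the arrays kept. Replicate numbers were checked for pairing: 13 of 93 same-numbered pairs of arrays had deviations correlated over 0.1, so the numbers were not taken to pair arrays in general. In 3 of 36 pairs of groups every same-numbered pair was over 0.1. They were parenchyma with dorsal SVZ at day 2 and at day 7, and dorsal SVZ with medial zone at day 7. Each array of the group named first correlated best with its own number in the other group, and the reverse was not checked.

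The genes and all gene lists were chosen with earlier results of these data known. Named were all members, the 5 genes most like gfap and cyp19a1b across group means, up to 4 called genes of each list by smallest adjusted p, and genes whose values stand beside a member's.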

Additional observations from a re-analysis of the deposited data

Results flagged for a closer look

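For nes, all day 7 arrays lay below the unlesioned arrays in the medial zone and above them in the dorsal SVZ. The share of all genes without overlap is not given for day 7. At day 2 over unlesioned it was 16.6% in the medial zone and 14% in the dorsal SVZ. Those shares come from other arrays, and in the medial zone from 4 lesioned arrays rather than 3. They are therefore not the matching shares for day 7. In the medial zone the difference was -0.40, with day 7 values of 4.77, 4.68 and 4.49 against unlesioned values of 4.94 and 5.16. In the dorsal SVZ it was 0.39, with day 7 values of 4.55, 4.67 and 5.10 against unlesioned values of 4.48, 4.14 and 4.54. Neither difference was called by limma (adjusted p = 0.9996 and 0.9997), where 0% of all genes were called in either zone. The test of the medial minus the dorsal SVZ effect gave -0.79 (SE 0.49, 95% interval -1.79 to 0.22, adjusted p = 0.9998).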

How the results depend on the processing

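Of 259 alternatives over the 15 within-region time comparisons and effect differences, 254 called none of the 9 genes. With 1 array left out in turn, the count ran over 0 to 1 for day 2 and for day 7 over unlesioned parenchyma, and over 0 to 1 for day 7 over day 2 in parenchyma. It was also 0 to 1 for day 2 over unlesioned and for day 7 over day 2 averaged over regions. Without the 2 arrays of lowest quality weight the count was 2 for day 7 over day 2 in parenchyma and 1 for day 2 over unlesioned averaged over regions. In unlesioned medial zone over dorsal SVZ the count of 2 became 1 without any array in turn (1 to 1), with every probe set, with the array median subtracted, and without the 2 arrays of lowest weight, since the vim call was lost. It became 3 when the 2 groups were fitted alone, with hepacama added. With the replicate block it was also 1 (vim -0.90, adjusted p = 0.054), as with the block within a time. Fitted on the groups of the comparison alone, medial zone over dorsal SVZ averaged over times called 5 in place of 3, nes (adjusted p = 0.04992) and s100b (adjusted p = 0.028) added. The same setting called cyp19a1b in medial zone over parenchyma (adjusted p = 0.041). For gfap, dorsal SVZ over parenchyma was called with the replicate block (-0.65, adjusted p = 0.0175), while 17 of 27 alternatives did not call it. No alternative turned the direction of a called gene. Subtracting array medians moved the median of all genes to 0.13 in unlesioned medial zone over parenchyma, where the share of calls that were higher was 80.7% against 69.1%, and 58.9% after quantile normalization. For medial zone over parenchyma averaged over times the shares were 71.8% and 60.6%. A member's other probe sets could not be tried, as each had 1. Leaving out an unlesioned medial or parenchyma array leaves 1, assumed to vary like the other groups.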

Other observations

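Among 7075 genes compared over the 9 group means, the pattern most like that of cyp19a1b was that of tspan18b (Pearson r = 0.984), followed by pvalb6 (0.967), cdk15 (0.964), kcnj9 (0.964) and xpr1a (0.961). The group means of tspan18b were 6.56, 6.56 and 6.94 in the medial zone without a lesion, at day 2 and at day 7. In the dorsal SVZ they were 5.36, 4.82 and 5.18, and in parenchyma 6.66, 6.41 and 6.32. For gfap the most like were robo4 (0.955), olfm3b (0.916), fli1rs (0.906), rapgef1a (0.900) and ch25h (0.896). Group means were 3.26 to 4.17 for robo4 and 2.85 to 3.94 for ch25h, against the table median of 3.07, where a level may be background only. The gene gfap itself was not called in any comparison of the main fit. These correlations share arrays and are a description of 9 points.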
